A study of Sus scrofa with 90 samples.

Results

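The subject here is a set of 63 unnamed array features whose signal was lower than in non-injected pig muscle in lesions 7 d and 21 d after an intramuscular injection. A feature is a spotted cDNA, and unnamed means that the annotation used here lists no single gene symbol for it. The members were chosen by their values, from the 1702 unnamed features among the 1908 that had a value in every column (4608 were listed). The mean difference from control had to be -0.25 or lower at 7 d and at 21 d and above -0.25 at 6 h, on quantile-normalised values. The 63 made up 3.70% of the unnamed features. Differences from control at these 3 ages are therefore a description and carry no test. The set was called lower in late lesions only, and the values go against the word only. At 6 h, 60 of the 63 were also below control on average, with a median of -0.20, and 32 lay under -0.20. Over all features 54.6% were below control at 6 h, with a median of -0.02. The 6 h values and the controls both entered the choice. The members are called late-low features below.

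Propylene glycol, a solvent that serves as a vehicle for injected drugs, was given into the Longissimus dorsi, the long back muscle, of 10 piglets (pigs C to L). Each piglet had 4 injections spaced so that its lesions were 6 h, 2 d, 7 d and 21 d old, and a site without injection served as control. Breed, sex and age were not stated. The comparisons below use 47 arrays, namely 10 controls, 9 from 6 h lesions, 10 from 2 d lesions, 9 from 7 d lesions (none listed for pig J) and 9 from 21 d lesions (none listed for pig L). The 6 h array of pig F was left out because its values stood under other features than their own, as was a pig J 6 h column that copied the pig I control.

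Injected muscle goes through death of fibres, entry of inflammatory cells, activation of satellite cells and the growth of new fibres, with connective tissue laid down in between. Transcripts of mature fibres, such as those of contraction and energy supply, make up much of the messenger RNA of resting muscle. In a whole tissue sample fewer cells of a type and less RNA per cell cannot be told apart. Of the 13 muscle markers listed for the tissue, 10 had features with values, 58 in all, and bright ones such as TNNC2 (feature 4616, control mean 2.87) and CKM (feature 5072, 2.56) were among them. No feature carried a symbol from the lists for neutrophils, macrophages, lymphocytes, erythrocytes or fat, and those for fibroblasts and endothelium had 1 feature each. FN1, fibronectin of the matrix, was at 0.10 in controls and differed by -0.19 at 7 d and -0.23 at 21 d, and PECAM1, an endothelial adhesion protein, by -0.05 and -0.07. Entry of other cell types was thus not measured, and its part in the differences was not tested.

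The late-low features were mostly bright. Their control means ran from 0.03 to 3.42 normalised log units with a median of 1.09, against a median of 0.04 for all features, and 33 of the 63 were above 1. Ranked within its array, the median member of the 10 controls stood at percentile 84.6 ± 1.99 (SD). It stood at 80.9 ± 2.32 in the 6 h lesions (n = 9) and at 82.2 ± 6.42 in those of 2 d (n = 10). In the late lesions it was at 75.0 ± 4.31 (7 d, n = 9) and 75.5 ± 7.28 (21 d, n = 9). At every age the set thus stayed in the upper part of the array. The log base of the deposited values is not given, so no fold is stated.

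The median of the 63 per array was lowest at 0.87 and highest at 1.20 in controls, with a median array at 1.11. At 6 h it ran from 0.70 to 1.12 (median array 0.82), and at 2 d from 0.31 to 1.20 (median array 1.02). At 7 d it ran from 0.42 to 0.91 (median array 0.60), and at 21 d from 0.22 to 0.95 (median array 0.72). Of the 9 lesions of 6 h, 8 lay below the median control array, and the 2 d arrays overlapped the controls apart from a single low one, pig D. At 7 d 8 of 9 arrays lay below the lowest control and at 21 d 7 of 9, so both late groups overlapped the controls.

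**Figure D1:**
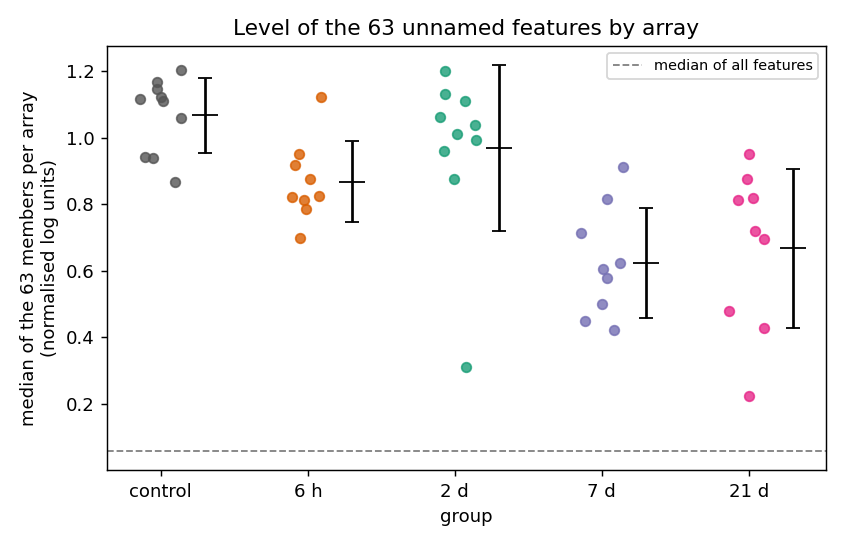
Each point is the median of the 63 late-low features on 1 array in normalised log units, by group, with the group mean and SD beside it in black and the median of all 1908 features as a dashed line. The 7 d arrays lay between 0.42 and 0.91 and the 21 d arrays between 0.22 and 0.95, against 0.87 to 1.20 in controls, and the lowest 2 d array (0.31) belonged to pig D.

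Over the members, the difference from control at 7 d ran from -0.72 to -0.26 with a median of -0.39, and at 21 d from -0.59 to -0.25 with a median of -0.32. The median over all features was -0.01 at 7 d and -0.00050 at 21 d. The 7 d value was the lower of the 2 in 43 members and the 21 d value in 20. At 7 d, 17 members were lower than control in every pig, where the background over all features was 5.45%, and at 21 d 9 were, with a background of 2.57%. The 9 arrays of 7 d all lay below the lowest control for 3 members (background 1.68%), and those of 21 d for 0 members (background 0.105%). These shares come from contrasts that chose the members, so nothing is read from them.

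The 8 members with the lowest mean of the 7 d and 21 d differences were features 5279, 4903, 5424, 4971, 4833, 5369, 5038 and 6042. They divide by how steady they were in controls. Features 5279, 4971, 5038 and 6042 had a control SD of at most 0.18, and features 4903, 5424, 4833 and 5369 had 0.39 or more.

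Feature 5279 was between 1.38 and 1.83 (median 1.55) in the 10 controls and between 0.35 and 1.29 (median 0.88) in the 9 lesions of 7 d. Its 7 d arrays did not overlap the controls. At 21 d it ran from 0.25 to 1.72 (median 1.35), so that 7 of the 9 arrays were below the lowest control while others were back in the control range. Its mean differences were -0.18 (6 h), -0.10 (2 d), -0.72 (7 d) and -0.45 (21 d).

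Feature 4971 was between 1.14 and 1.58 (median 1.34) in controls, 0.08 and 1.20 (median 0.66) at 7 d, and 0.24 and 1.51 (median 0.93) at 21 d. It differed from control by -0.68 at 7 d, lower in 8 of 9 pigs, and by -0.38 at 21 d, lower in 7 of 9. Its lowest 6 h value, 0.49 in pig G, and its lowest 2 d value, 0.67 in pig D, stood apart from the rest of their groups.

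Feature 6042 had controls from 1.62 to 2.05 (median 1.90), 7 d lesions from 0.60 to 1.85 (median 1.35) and 21 d lesions from 0.62 to 2.00 (median 1.53). It was lower in 9 of 9 pigs at 7 d, by -0.58 on average, and also in 9 of 9 at 6 h, by -0.22. At 21 d it was lower in 6 of 9, by -0.38, with its lowest value in pig J.

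Feature 5038 was lower in 9 of 9 pigs at 7 d and again at 21 d, which none of the other 7 was. Controls ran from 0.71 to 1.27 (median 1.12), 7 d lesions from 0.29 to 1.03 (median 0.51) and 21 d lesions from 0.05 to 0.87 (median 0.68). Its differences were -0.24 (6 h), -0.23 (2 d), -0.51 (7 d) and -0.47 (21 d).

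The other members among the 8 varied more between control sites. Feature 4903 spanned 0.88 to 3.28 in controls, 1.27 to 3.03 at 7 d and 1.10 to 2.98 at 21 d, and was lower in 6 of 9 pigs at each late age. Feature 5369, among the brightest, spanned 2.55 to 3.59 in controls and 1.38 to 3.59 at 7 d, where 3 of 9 arrays were below the controls. These were pigs G (1.38), H (1.59) and I (1.52), while the rest ran from 3.07 to 3.59. At 21 d the low arrays were pigs I (1.96), J (1.42) and K (1.88). In feature 4903 at 7 d, pigs G (2.89), H (3.03) and I (2.98) were high and the rest at most 1.51. The 7 d means of both features thus mix arrays at separate levels. Feature 4833 spanned 0.82 to 3.42 in controls and 0.60 to 1.93 at 7 d. The groups overlapped in all 3.

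Feature 5424, the last of the 8, had controls from 0.11 to 2.38 (median 0.83), where the highest, pig J, stood apart. Its mean difference was -0.59 at 21 d and -0.48 at 7 d, with 7 of 9 pigs lower at each age.

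**Figure D2:**
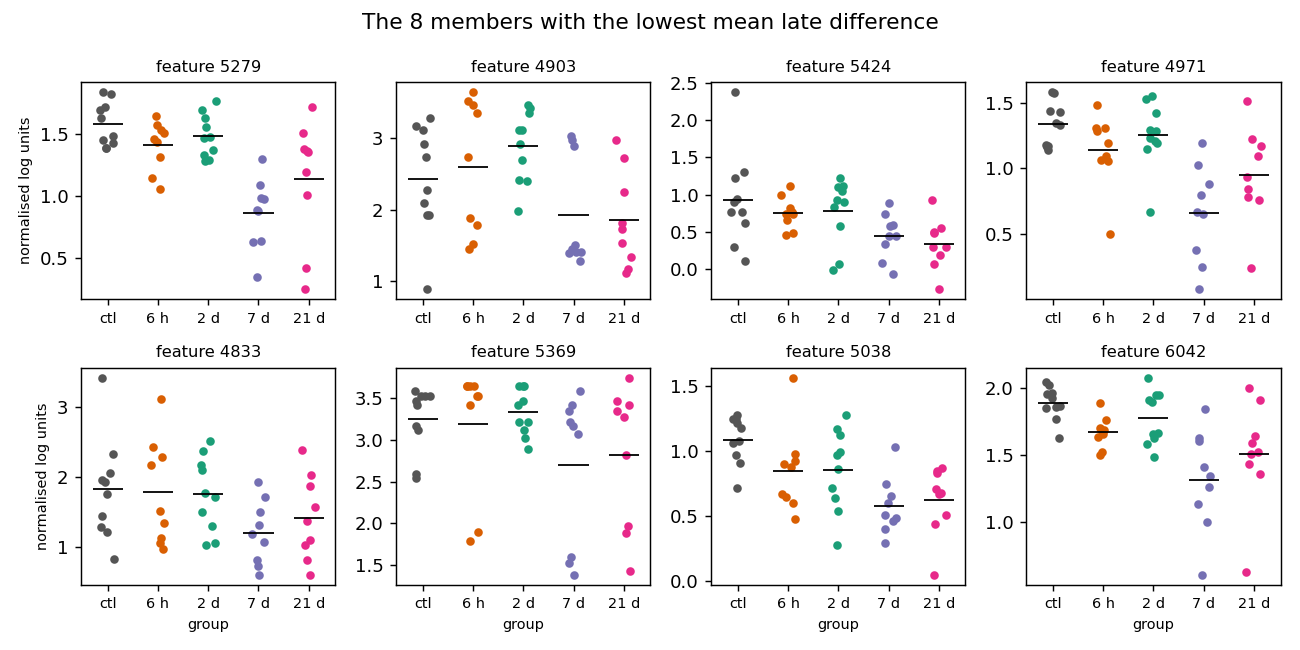
Each panel shows 1 of the 8 members with the lowest mean late difference, with 1 point per array in normalised log units by group and the group mean as a black line (ctl, control). In feature 5279 the 7 d points (0.35 to 1.29) do not overlap the controls (1.38 to 1.83), whereas in feature 4903 the controls themselves span 0.88 to 3.28.

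Besides 5279, 2 members had 7 d arrays wholly below the controls, read after their values were seen. Feature 5846 had controls from 0.56 to 0.98 and 7 d lesions from 0.15 to 0.53, a mean difference of -0.49. Feature 6524, at the dim end, had controls from 0.07 to 0.40 and 7 d lesions from -0.45 to 0.07, a mean difference of -0.33. At 21 d both overlapped the controls, with 7 of 9 pigs lower for 5846 and 8 of 9 for 6524.

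The 6 h limit cut through a continuous cloud of features. Of 172 unnamed features at or below -0.25 at both 7 d and 21 d, 109 were also at or below -0.25 at 6 h and so were not members, and 28 of these lay above -0.30. Members just inside the limits were 6521 (-0.25 at 6 h, -0.28 at 7 d, -0.27 at 21 d), 6823 (-0.23, -0.28 and -0.28 in the same order) and 5317 (-0.24, -0.29 and -0.27). Features just outside were 6117 (-0.24, -0.22 and -0.23), 5757 (-0.28, -0.23 and -0.25) and 6746 (-0.22, -0.23 and -0.22). The SD of these 6 features between arrays of 1 group ran from 0.066 (6117 in controls) to 0.40 (5317 at 21 d). Feature 6117, no member, had controls from 0.93 to 1.13 and 7 d lesions from 0.62 to 0.89, so its groups were apart at 7 d while those of most members overlapped.

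Members clearly apart from their 6 h limit were few. Only 9 of 63 were above -0.10 at 6 h, and 3 were above 0, features 4903 (0.16), 5653 (0.13) and 6759 (0.0022), named after their values were seen. Feature 5653 then stood at -0.34 at 7 d and -0.43 at 21 d, and feature 6759 at -0.44 and -0.36.

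**Figure D3:**
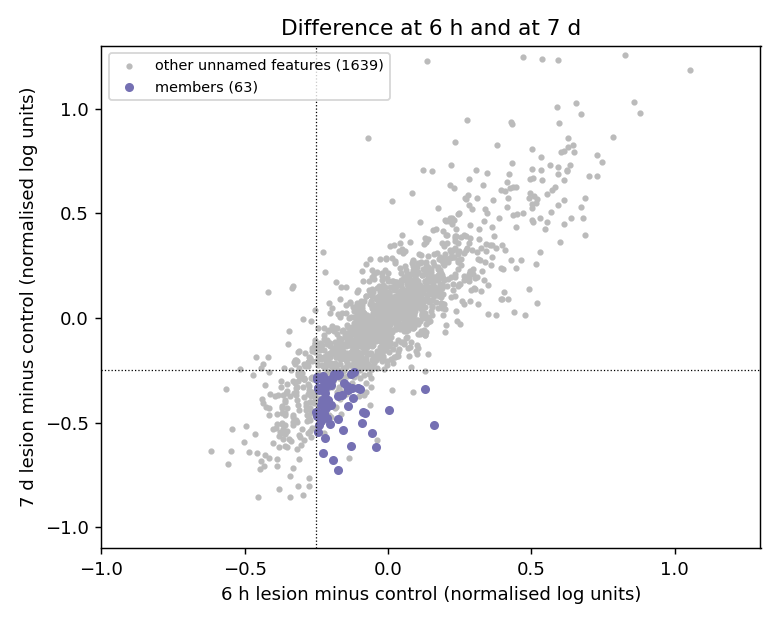
Each point is 1 unnamed feature, with its difference from control at 6 h across and at 7 d upwards in normalised log units, and dotted lines at -0.25. The members (purple) fill the strip to the right of the 6 h limit with no gap to the features left of it. Both axes share the controls, and 11 other features fall outside the plotted range.

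The 2 d lesions took no part in the choice of members, although their comparison with control uses the controls that did. A control mean that happens to be high favours membership and lowers this difference too. At 2 d the members had a median difference of -0.13, against -0.02 over all features, and 53 of the 63 were below 0, against 55.8% of all features. The median was -0.085 without pig D, -0.063 with the array SD as a term, -0.057 with array weights and -0.057 with the local trend along the list subtracted. By limma, a linear model with a moderated variance fitted here over all features with the pig as a block, 0 of the 63 were lower at 2 d at an adjusted p below 0.05. The background was 0%, since none of the 1908 features was called lower at 2 d, and 14 (0.734%) were called in either direction. At an unadjusted p below 0.05, 8 members were lower and 0 higher, with a background of 4.19% lower. The smallest adjusted p among the members was 0.248, and the SE of a member's difference had a median of 0.113, so differences of this size were not detectable feature by feature.

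The members with the lowest 2 d values were features 5786, 5253, 4841 and 6154. Feature 6154 ran from 1.88 to 2.85 in controls (median 2.09) and from 1.63 to 2.07 at 2 d (median 1.88), lower in 8 of 10 pigs, by -0.27 (SE 0.0933, limma adjusted p = 0.248). Its highest control, pig E, stood apart. Feature 4841, with controls from 2.65 to 3.47 and 2 d lesions from 2.40 to 3.35, was lower in 9 of 10 pigs by -0.27 (SE 0.113, limma adjusted p = 0.398). Features 5253 at -0.28 (SE 0.106, limma adjusted p = 0.306) and 5786 at -0.29 (SE 0.188, limma adjusted p = 0.623) did not pass either. These 4 and feature 6139 (-0.25), named after its value was seen, were the 5 members at or below -0.25 at 2 d, against 2.36% of all features.

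The members with the highest 2 d values were above control at that age and below it at 6 h, 7 d and 21 d, apart from 4903 at 6 h. Feature 4903 was at 0.46 (SE 0.325, limma adjusted p = 0.659), lower in 2 of 10 pigs. Feature 6823 ran from 1.13 to 1.75 at 2 d, against 0.70 to 1.57 in controls, and was at 0.15 (SE 0.0898, limma adjusted p = 0.602). Feature 6059 was at 0.15 (SE 0.0924, limma adjusted p = 0.609) and feature 5288 at 0.12 (SE 0.138, limma adjusted p = 0.771). None passed the test, and on table values the differences of 6823 (-0.24) and 6059 (-0.02) were below 0.

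Pigs differed at 2 d and at 21 d. The median over the 63 of a pig's own 2 d difference ran from -0.52 in pig D and -0.30 in pig F to 0.04 in pig G, and at 21 d from -0.66 in pig J to -0.05 in pig C. At 2 d 55 of the 63 were lower in pig D and 27 in pig G. Across the 10 arrays of 2 d, pairs of members had a median correlation of 0.376, over 1953 pairs that share arrays, against -0.0041 for pairs of all features. It was 0.229 without the 2 d arrays of pigs D and F. In controls it was 0.039 and at 6 h 0.071, while it was 0.232 at 7 d and 0.222 at 21 d. Members thus varied together between arrays of 1 group at 2 d, 7 d and 21 d more than at 6 h or in controls, as a description of 9 or 10 arrays each.

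The rule used the same limit at 7 d and at 21 d, and both groups entered it. Over all features 16.8% were at or below -0.25 at 7 d and 13.2% at 21 d. The choice can thus favour members that are lower at 7 d. The comparison of these ages, with its limma values, is given as a description. The 7 d group lacked pig J and the 21 d group lacked pig L. Of the 63 members, 43 were higher at 21 d than at 7 d. The share over all features was not counted, so this count is not read as a result about the members. The median difference of the members from 7 d to 21 d was 0.05, against 0.0038 over all features. That median was 0.095 without pig D, 0.085 without pig J, 0.096 with only these groups in the fit and 0.085 with array weights. By limma 0 of 63 differed at an adjusted p below 0.05, with a background of 0.681% called. At an unadjusted p below 0.05, 7 members were higher at 21 d and 0 lower, with a background of 3.88% higher. The values of both groups chose the members and not the background features, so no recovery is read from these counts. Feature 5438 had the smallest p and was named after its value was seen. It was between 0.48 and 1.19 (median 0.89) at 7 d and between 0.82 and 1.57 (median 1.21) at 21 d, against 1.17 to 1.57 in controls. The fitted difference was 0.33 (SE 0.0901, limma adjusted p = 0.0751), and it lay nearer to control at 21 d with the groups overlapping. Feature 5279, at 0.29 (SE 0.133, limma adjusted p = 0.570), and feature 4971, at 0.29 (SE 0.120, limma adjusted p = 0.424), had the same sign. They were the members with the lowest 7 d differences from control (-0.72 and -0.68). On group means 20 of the 63 went the other way. Among these were feature 5832 at -0.29 (SE 0.194, limma adjusted p = 0.712) and feature 5424 at -0.16 (SE 0.195, limma adjusted p = 0.887), both as fitted.

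To see the same measure in animals that had no part in the choice, the rule was run again without each pig and the chosen features were read in the pig left out. Between 49 and 83 features were chosen, of which 34 to 52 were among the 63. At 7 d the median lesion minus control in the left-out pig was below 0 in 9 of 9 pigs, from -0.65 (pig E) to -0.14 (pig C), with a median over pigs of -0.36. Over all unnamed features the same median ran from -0.03 to 0.0042. At 21 d it was below 0 in 7 of 9 pigs, with a median over pigs of -0.25. The lowest was -0.37 in pig D, and pigs C (0.09) and I (0.0097) were not below 0.

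The younger lesions were read in the same way. At 6 h the left-out median was below 0 in 9 of 9 pigs, from -0.35 to -0.12 with a median over pigs of -0.21. At 2 d it was below 0 in 8 of 10 pigs but close to the other features, with a median over pigs of -0.04 against -0.01, and pigs D (-0.39) and F (-0.34) apart. In pigs outside the choice, features chosen to be above -0.25 at 6 h were thus still below control at 6 h on normalised values. Run on median-centred or on table values, the count was 7 of 9 pigs at 6 h, at 7 d and at 21 d, and 5 or 6 of 10 at 2 d. Pigs C and L were then above 0 at 7 d, at 0.52 and 0.60 when median centred and at 0.52 and 0.64 on table values. The 6 h array of pig F, which the rule also did not use, can be read for 33 members after moving its values a fixed number of places along the list. Their median was -0.28 against the pig's own control, with 22 of 33 lower, and the same 33 ran from -0.28 to -0.13 in the other 9 pigs.

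**Figure D4:**
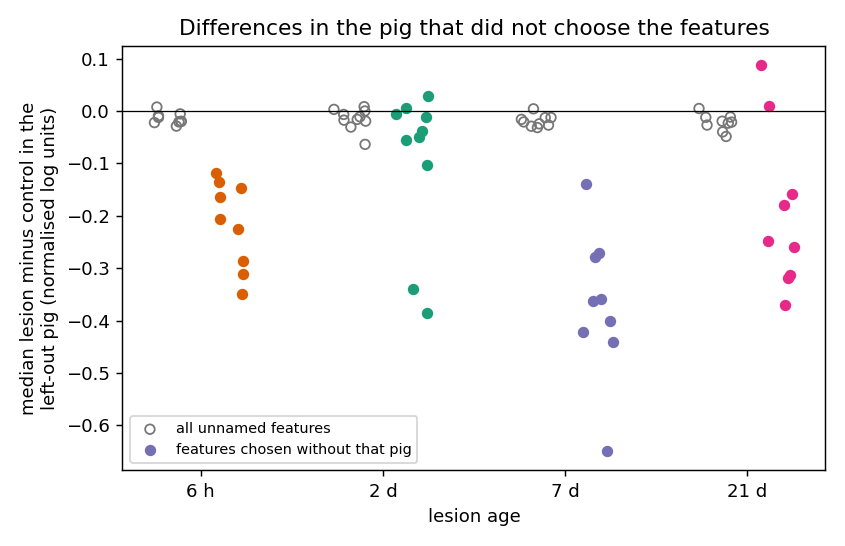
For each lesion age, open points give the median lesion minus control over all unnamed features in 1 pig, and filled points the median over the features that the rule chose without that pig, in normalised log units. The filled points lie below 0 for 9 of 9 pigs at 6 h and at 7 d, for 8 of 10 at 2 d and for 7 of 9 at 21 d.

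How low the members stood at 6 h depended on the scaling of the arrays. Within an array, table values spread most in the 10 controls, with a mean SD of 0.976 ± 0.237. The 6 h lesions (0.744 ± 0.0926, n = 9) and 2 d lesions (0.805 ± 0.0985, n = 10) were narrower. The narrowest groups were the lesions of 7 d (0.607 ± 0.158, n = 9) and 21 d (0.643 ± 0.196, n = 9). Quantile normalisation gives all arrays 1 distribution. On table values the median member differed by -0.53 at 6 h and -0.39 at 2 d. It differed by -0.93 at 7 d and by -0.89 at 21 d, and 60 of the 63 were at or below -0.25 at 6 h as well as at 7 d and 21 d. Of all features, 27.5% were at or below -0.25 at 6 h, 32.1% at 7 d and 32.8% at 21 d on table values. Only features 5288, 5656 and 6259 still met the 3 limits there. The rule on table values chose 74 features, 3 of them shared (4.76% of the 63 and 4.05% of the 74). On median-centred values it chose 65, with 2 shared (3.17% of the 63 and 3.08% of the 65).

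**Figure D5:**
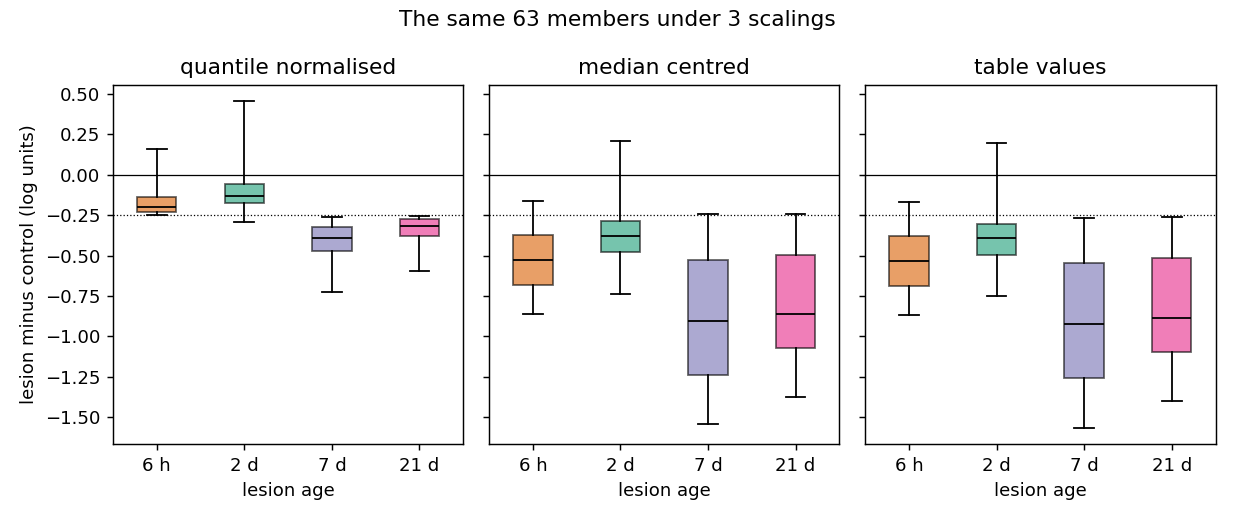
Boxes show the differences from control of the same 63 members by lesion age, with the median, the quartiles and whiskers to the lowest and highest member, for quantile-normalised, median-centred and table values in log units, and a dotted line at -0.25. At 6 h the median is -0.20 when quantile normalised, -0.53 when median centred and -0.53 on table values.

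Lesion arrays had a lower SD than the control array of the same pig in all pigs but C and L. On table values the member median was below control where the lesion array was narrower, and above it where it was wider. In pigs C and L the control array had the lowest SD of the 10 (0.528 and 0.594), and their lesion arrays had higher ones. In these pigs the normalised median of the members at 7 d was still below control, at -0.20 and -0.35, while on table values it was above control, at 0.31 and 0.08. At 21 d pig C was at -0.05 normalised and at 0.94 on table values. Both pigs took part in the choice of the members on normalised values. With features chosen without the pig read, pig C was at -0.14 and pig L at -0.27 at 7 d when normalised. At 21 d pig C was then at 0.09. The part of the array spread was not tested. Without both pigs, 58 of the 63 stayed at or below -0.25 at 7 d and 58 at 21 d, and 15 were then at or below it at 6 h. The remaining pigs also chose the 63, which favours the late counts. Run again without both pigs, the rule gave 88 members, 40 of them shared with the 63.

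Brightness and place on the feature list, which the rule did not use directly, were shared by the members. By their level in the 2 d lesions, 50 of the 63 fell in the brightest of 3 equal groups of features, 12 in the middle and 1 in the dimmest. In that brightest group all features had a median difference of -0.12 at 6 h, -0.16 at 7 d and -0.15 at 21 d, against -0.0026, 0.01 and 0.02 in the dimmest.

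All members lay between features 4703 and 6823 of a list that runs from 4609 to 9213 for features with values. Cut into 12 stretches of equal length, the first 6 held 8, 18, 14, 11, 8 and 4 members. The other 6 held 0, although the seventh, eighth and ninth had 152, 151 and 168 unnamed features with values. The second stretch (8.57% of its unnamed features) was also the brightest, with a median control level of 0.42. On the list of features with values, 6 pairs of members stood next to each other. Unnamed features within 3 places of a member that were not members themselves, 262 in number, had a median of -0.08 at 7 d, against -0.07 for the 811 other unnamed features up to the last member. Since members were left out of these 262, the values do not show whether neighbours share the low level, and the part of the place on the list was not tested. What the stretches stand for was not stated in the labels.

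Among the 206 features with a single symbol, 9 met the same 3 limits (4.37%), and they give the named genes that stood where the late-low features did. Contractile and calcium handling genes were TNNC2 (troponin C of fast fibres, features 5376 and 5380), ATP2A2 (the calcium pump of slow and cardiac muscle, feature 5418) and SMPX (a small protein of striated muscle, feature 6351). Energy supply was represented by CKM (muscle creatine kinase, features 5806 and 6528) and ENO3 (the muscle enolase of glycolysis, feature 5217). POMGNT1 (which adds sugars to dystroglycan, feature 5056) and SLC35A4 (a member of the nucleotide sugar transporter family, feature 5104) complete the list. They too were chosen by these contrasts and have no test here.

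POMGNT1 had the lowest mean of the 7 d and 21 d differences among the 9, while TNNC2 feature 5380 was lower at 7 d alone. POMGNT1 ran from 1.21 to 1.62 in controls, from 0.66 to 1.06 at 7 d and from 0.14 to 1.17 at 21 d, with no overlap at either late age. Its differences were -0.19 (6 h), -0.13 (2 d), -0.54 (7 d) and -0.57 (21 d). TNNC2 feature 5376 was level with control at 6 h (0.0075) and stood at -0.13 (2 d), -0.42 (7 d) and -0.52 (21 d), lower in 8 of 9 pigs at both late ages. TNNC2 feature 5380 had -0.06 at 6 h, -0.57 at 7 d and -0.43 at 21 d.

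CKM feature 5806 was at -0.04 at 6 h, -0.33 at 7 d and -0.38 at 21 d, and CKM feature 6528 at -0.24, -0.39 and -0.35. ENO3 was at -0.21, -0.41 and -0.36 in the same order, with lower values in only 5 of 9 pigs at 7 d. ATP2A2 was at -0.03, -0.27 and -0.29, and lower in 9 of 9 pigs at 7 d and 8 of 9 at 21 d. SMPX was at -0.16, -0.34 and -0.27, and SLC35A4 at -0.23, -0.40 and -0.35.

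A symbol was no guide to the whole gene. Of 10 CKM features with values 2 met the limits and 5 were at or below -0.25 at 7 d, while their 7 d differences ran from -0.44 to 0.39. Of 12 TNNC2 features 2 met the limits and 5 were at or below -0.25 at 7 d, with 7 d differences from -0.57 to 0.09. Of the 58 features of the muscle markers, 4 met the limits. The share that met them was 4.37% over all symbol features and 3.70% over unnamed ones. At 7 d 17 of the 58 were at or below -0.25 (16.8% of all features were) and at 21 d 14 (13.2% of all features were). The 7 d differences of the 58 ran from -0.60 to 1.18, both in features of MYLPF, a fast myosin light chain (5772 and 7944).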

How the data were processed

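Total RNA of each muscle sample was labelled with 33P and hybridised to a cDNA array with 2 duplicated parts, per the labels. The deposited table, made by the authors, holds values on a log scale of unstated base, with centring and other steps not given in the sources used here. Of 90 columns, 41 of the 42 samples with a pair of columns had identical ones, and columns were averaged per sample. Values were quantile normalised over 1908 features. Features with no value (2695) or a value in only some columns (5) were left out. The members and lists were chosen with earlier results of these data known.

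Differences are lesion mean minus control mean. Tests used limma 3.58.1 in R 4.3.3, with group and pig as terms, over all features and Benjamini-Hochberg adjusted, for the 2 d lesions against control and for 21 d against 7 d. Samples with the same letter come from 1 pig. Deviations of arrays of 1 pig had a median correlation of -0.0236, against -0.0035 between pigs, so the pairing rests on the design. The fit was checked on simulated data.

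Features were named by rule: the 8 with the lowest late mean, the 4 lowest and 4 highest at 2 d, members called in either test (none were), the 3 nearest the limits on each side, and the features with a symbol that met the limits. The number of arrays limits the precision. Alternatives were other scalings, limits, blocks, weights, filters and each pig left out.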

Additional observations from a re-analysis of the deposited data

Results flagged for a closer look

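Single arrays stood apart from their group, by the gap to the nearest array against the group's range, in 17 of 135 groups of arrays tested (12.6 per 100). Chance flags about 1 in 20 where groups are independent, normally distributed and not selected. Here the groups share arrays and most features were named for extreme values, so no excess is read from the count. The median of the 63 members was 0.31 in the 2 d lesion of pig D, the lowest of its group. Feature 4971 was also lowest there, at 0.67, and in the 6 h lesion of pig G, at 0.49. In the same pig G 6 h lesion, feature 5038 was highest at 1.56 and CKM feature 5806 highest at 1.18, and in its 7 d lesion ENO3 feature 5217 was highest at 1.47.

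Among controls, the highest values were 2.65 for ENO3 feature 5217 and 2.38 for feature 5424, both in pig J, 1.56 for feature 5288 in pig C and 2.85 for feature 6154 in pig E. Feature 6823 was lowest at 0.70 in the pig I control. These features' differences from control include those arrays.

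In lesions, feature 5288 was highest at 0.60 in pig E at 6 h, feature 5317 highest at 1.12 in pig I at 21 d, and TNNC2 feature 5376 highest at 2.00 in pig H at 7 d. Feature 6042 was lowest at 0.62 in pig J at 21 d. SMPX feature 6351 was highest at 0.98 in pig I at 2 d and at 0.88 in pig K at 21 d.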

How the results depend on the processing

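Membership moved more than the number of members. Of the 63 members, 2 stayed under median centring, 3 on table values, 31 with limits of 0.20, 32 with limits of 0.30, 38 with the pig F 6 h array kept in place and 40 without pigs C and L, an alternative chosen after the array spreads were seen, which gave 88 members. With the pig F array moved along the list, 910 features could be compared and 25 were members, 22 of them shared with the 33 members present. Leaving out each pig kept 34 to 52, fewest without pig D. Median centring and table values each called 1 member lower at 2 d, with medians of -0.38 and -0.39, where 57 and 28 of all features were called in either direction, against 14. Array weights called 2 members between 21 d and 7 d, where 18 of all features were called, against 13. The fit with no replicate block called 0 members in the 2 d comparison, with a median of -0.13. That median lay nearer 0 with array SD (-0.063), array weights (-0.057), the local trend subtracted (-0.057) and without pig D (-0.085). The left-out pig median at 21 d was -0.68 under median centring and -0.74 on table values, and at 2 d -0.19 on table values. These medians are of other features, at most 5 of them shared with the 63. The 2 d sign turned for feature 5288 with array SD in the model (-0.075), for 6059 under median centring (-0.0066) and table values (-0.022), and for 6823 under both (-0.22 and -0.24). The cause was not tested. Signal over background is not in the table, so its limit for dim features is unknown.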
